A study of Caenorhabditis elegans with 21 samples.

Results

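Small RNAs of Caenorhabditis elegans carrying a dpf-3 null mutation were compared with those of wild-type worms to ask which genes and genomic intervals lose or gain small RNAs without the protease DPF-3. The comparison used 9 of the 21 libraries of the study, the 3 libraries dpf-3 null A to C and the 6 libraries wild type A to F, and every feature of the count table. Both groups were whole L4 worms, the last larval stage, kept at 15 °C on peptone-rich plates with NA22 bacteria, and neither carried any other allele named in the labels. Total RNA was enriched for small RNAs, treated with RNA 5′ polyphosphatase and made into libraries with the QIAseq miRNA kit. The polyphosphatase lets small RNAs with a 5′ triphosphate be ligated. The study has 3 more wild-type libraries, G to I, and no label tells them from A to F. They stand elsewhere in the count table and served here only as an alternative control. Of 75393 features in the table, 20134 are genes and 55259 are intervals given by coordinates alone.

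In C. elegans, RNA-dependent RNA polymerases copy target transcripts into 22G RNAs, short antisense RNAs with a 5′ triphosphate. Argonautes of the WAGO group bind 22G RNAs of transposons, pseudogenes and silenced genes and repress them, whereas CSR-1 binds 22G RNAs of genes expressed in the germline. Mutator proteins at perinuclear foci serve the amplification of WAGO-bound 22G RNAs, and ERGO-1 with its 26G RNAs starts it on a set of recently duplicated genes. DPF-3 is a dipeptidyl peptidase, which removes amino acids in pairs from the start of a protein, and WAGO-1 and WAGO-3 (gene ppw-2) are among the Argonautes it is known to process.

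Counts in features ranged from 233040 to 472767 per wild-type library and from 137185 to 224503 per null library. Levels are library-normalised counts (CPM) after trimmed mean of M values (TMM) scaling, as mean ± SD with n = 6 wild-type and n = 3 null libraries throughout, and are not corrected for gene length. Across tested features, log2 CPM correlated at 0.922 to 0.965 between wild-type libraries, at 0.897 to 0.915 between null libraries and at 0.322 to 0.356 between the groups. No library stood apart from its group. The labels do not say that replicates came from separate cultures, so a p-value here covers the spread among the libraries, which may be technical. Small RNAs of dpf-3 itself (chromosome I, 6838354 to 6843343) lay between 69.9 and 109 CPM (median 82.2) in wild type and at 10.0, 4.24 and 5.34 CPM in null A, B and C. The groups did not overlap, and the fall was 12.8-fold (log2 -3.51, SE 0.43, edgeR adjusted p = 1.63e-11), resting on 5 counts. These are small RNAs and not messenger RNA, so the drop does not test the mutation.

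Small RNAs fell at a large share of the features, often by an order of magnitude, while rises were small. After a filter on low counts, 3991 features were tested, 3458 genes and 533 intervals, holding 91.0% of feature counts. Of these 1486 (37.2%) were lower and 1199 (30.0%) higher in the null at an adjusted p under 0.05 (edgeR quasi-likelihood test). With a change of at least 2-fold required, 1339 (33.6%) were lower and 163 (4.08%) higher. Of the genes 993 (28.7%) fell and 1189 (34.4%) rose, with a median log2 fold change of 0.32 over all tested genes. Among genes 403 fell at least 8-fold, 239 fell 4- to 8-fold and 218 fell 2- to 4-fold, whereas 159 rose 2- to 4-fold and 2 rose by 4-fold or more (4.66% of genes in all). The loss was concentrated, since 102 features made up 50% of the summed loss in CPM and the 10 largest made up 13.1%. Features called lower held 812802 to 863118 CPM in wild type and 162620 to 167508 CPM in the null, while those called higher held 159034 to 170450 and 237765 to 245100 CPM. In 2201 features (55.1%) all 3 null libraries lay outside the range of the 6 wild-type libraries.

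**Figure D1:**
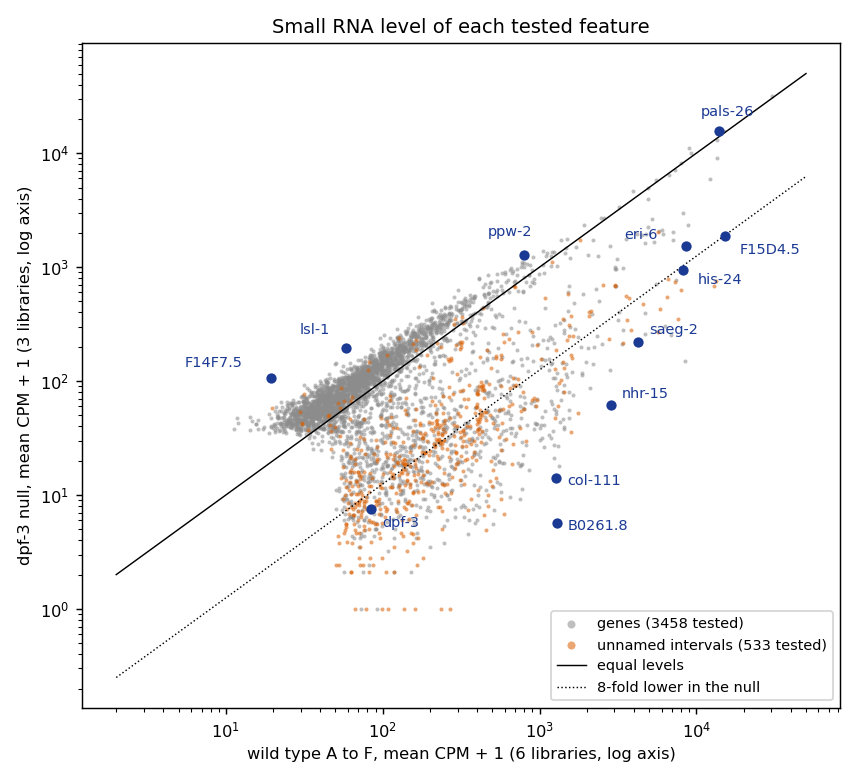
Mean small RNA level of each of the 3991 tested features in wild type A to F (x axis, CPM + 1, log axis) against the dpf-3 null (y axis, CPM + 1, log axis). Most genes form a band just above the line of equal levels, and a second, wide cloud of genes and intervals lies below it, reaching past the line of 8-fold loss.

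How many features rose depended on the scaling. Scaling to library totals gave 1252 lower and 2452 higher, scaling to all reads counted 1381 and 1893, and TMM factors from genes alone 1532 and 739. The median log2 fold change of all tested genes was then 1.16, 0.61 and 0.16, against 0.32 as reported. A gene that changed no more than the median gene may thus be called higher by one scaling and not by another, and every change below is relative to these medians. The filter matters as well: 969 features passed it through the null libraries alone and 960 through the wild-type libraries alone, so their direction was in part fixed by the filter. Of the 1957 features that passed in both groups, 541 fell and 751 rose. With wild type G to I as the control, 991 of the 1486 lower features were again lower and 68 were higher, and of the 1199 higher features 684 were again higher and 46 were lower. In whole worms, fewer cells of a type and less small RNA per cell cannot be told apart.

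Small RNAs of germline genes silenced by WAGO Argonautes fell at most of the list. Of 18 tested, 12 fell and 0 rose, against 28.7% and 34.4% of all genes, with a median log2 fold change of -1.60 against 0.32. Their summed level, over all 21 listed genes in the table, was 63355 to 68352 CPM in wild type and 29269 to 32143 CPM in the null. B0261.8 (I, 5271265 to 5272041) had 1112 to 1384 CPM in wild type (median 1298) and 3.34, 0 and 10.7 CPM in the null. These 3 null counts against 1881 give a ratio of 312 with an exact 95% interval of 107 to 1516. Next to no small RNA of this gene was left in any null library.

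saeg-2 (III, 9240363 to 9242514), which encodes a nuclear factor acting with the kinase EGL-4, had 3896 to 4522 CPM in wild type (median 4234) and 274, 169 and 219 CPM in the null. C38D9.2 (V, 17567150 to 17571742) had 4392 to 4997 CPM (median 4739) and 237, 242 and 288 CPM. F15D4.5 (II, 13245376 to 13247774), which had the most wild-type counts of any gene that fell, had 13856 to 16859 CPM (median 15104) and 1802, 2182.1 and 1655 CPM. All 3 genes were without overlap between the groups and fell 19.3-fold (log2 -4.24, SE 0.11), 18.5-fold (log2 -4.22, SE 0.10) and 8.09-fold (log2 -3.01, SE 0.08), with edgeR adjusted p of 4.9e-52, 1.28e-53 and 7.12e-50. C18D4.6 fell from 1531 ± 84.4 to 45.9 CPM (log2 -4.97), and sosi-1 fell from 2508 ± 174 to 210 CPM (log2 -3.60). Members with smaller falls were bath-45 (log2 -1.69), F37D6.3 (-1.51), bath-13 (-1.33) and W05H12.2 (-0.19). The other 6 tested genes of the list, among them C44B11.6 (log2 0.03, adjusted p = 0.693) and K02E2.6 (log2 0.06, adjusted p = 0.359), were not called, and 4 of them are also ERGO-1 targets. With library totals 11 were lower and 7 higher, and against G to I 10 of 17 tested were lower and 7 higher.

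**Figure D2:**
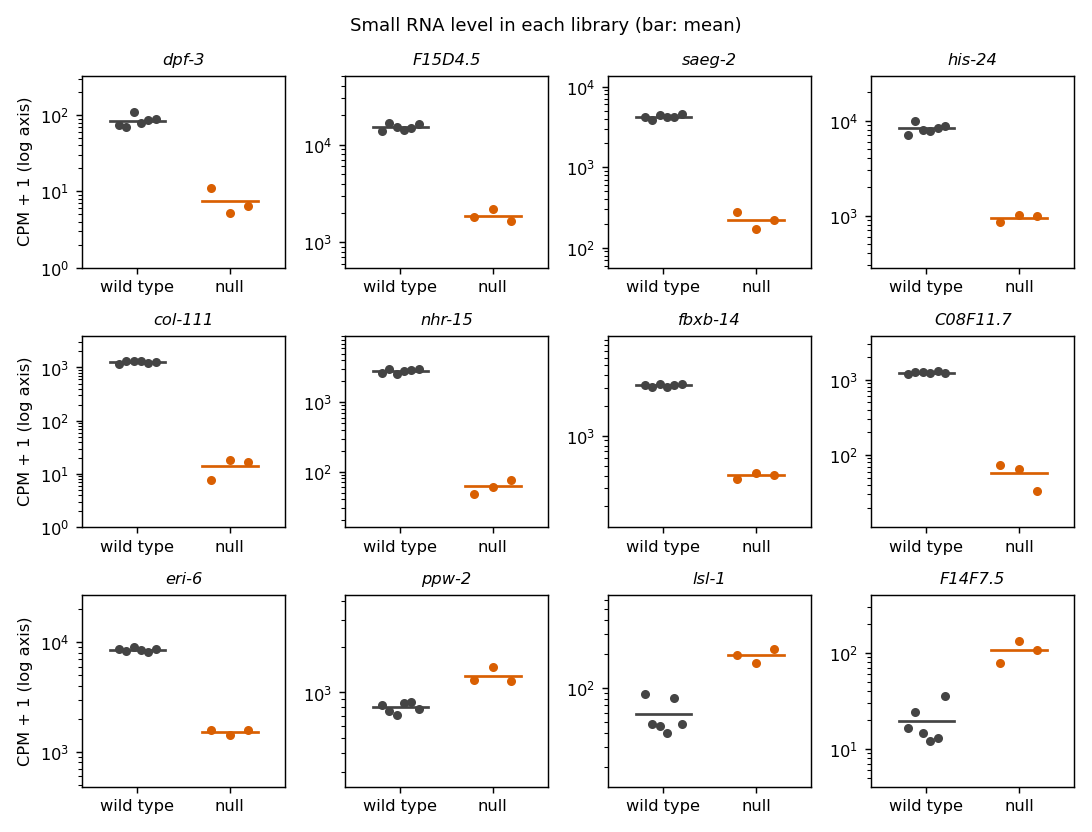
Small RNA level (CPM + 1, log axis) of 12 genes in each of the 6 wild-type (A to F) and 3 null libraries, with a bar at the mean. The null libraries lie below all wild-type libraries for dpf-3, F15D4.5, saeg-2, his-24, col-111, nhr-15, fbxb-14, C08F11.7 and eri-6, and above them for ppw-2, lsl-1 and F14F7.5.

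The 12 genes with the largest falls, B0261.8 and col-111 among them, had 0 to 9 counts each over the 3 null libraries. All 12 lay below the filter's 42.9 CPM in every null library. They were thus tested through wild type alone, which in part fixed their direction. B0513.4 (IV, 13880151 to 13881546) and the pseudogene Y75D11A.1 (X, 1756159 to 1757788) had 56.9 to 154 CPM and 46.6 to 86.2 CPM in wild type and were without counts in the null. Taken against 3 counts over the null libraries, they were at least 21.9-fold and 17.9-fold lower. K07A1.3 (I, 9587148 to 9588153) had 459 to 576 CPM (median 495) in wild type and 0, 8.47 and 5.34 CPM in the null, a ratio of 120 with an exact 95% interval of 40.9 to 584. ndx-2, which encodes a Nudix hydrolase, fell from 510 ± 48.7 to 6.38 ± 5.64 CPM (log2 -6.41, SE 0.29). idpp-2 fell from 1269 ± 39.6 to 13.6 ± 12 CPM (log2 -6.61, SE 0.20) and W03C9.1 from 746 ± 54 to 8.24 ± 3.93 CPM (log2 -6.39, SE 0.24). dmd-9, which encodes a DM-domain protein of the family of sex-determination factors, had 1 null count against 222, a ratio of 110.6 with an exact 95% interval of 19.6 to 4388. ZK1010.4, W04C9.5 and Y44E3A.1 had 2 or 3 null counts each, with ratios of 126 (95% interval 34.6 to 1042), 93 (31.7 to 452) and 89.7 (24.6 to 743).

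Small RNAs of most ERGO-1 targets were not called either way against wild type A to F. Of 17 tested, 3 fell, 4 rose and 10 were not called, with a median of 0.06. Over all genes 28.7% fell and 34.4% rose, with a median of 0.32. C08F11.7 (IV, 13637275 to 13638666) had 1180 to 1286 CPM in wild type (median 1253) and 73.4, 63.6 and 32 CPM in the null, a 22.1-fold fall without overlap (log2 -4.38, SE 0.15, edgeR adjusted p = 1.05e-42). R06C1.4, which is also on the WAGO list, fell from 928 ± 59.5 to 65.5 ± 3.42 CPM (log2 -3.83) and B0250.8 from 4757 ± 356 to 1939 ± 101 CPM (log2 -1.29). Y17D7B.4, with 29450 to 31925 CPM in wild type and 32357, 31588 and 31394 CPM in the null, overlapped between the groups (log2 0.06, adjusted p = 0.393). C36A4.11, W04B5.2 and Y37E11B.2 had log2 fold changes of 0.12, -0.02 and -0.05 and were not called either. F14F7.5 (III, 13032001 to 13036408) rose from 11.2 to 34.9 CPM (median 14.6) to 76.8, 131 and 107 CPM, which was 5.70-fold (log2 2.59, SE 0.31, edgeR adjusted p = 1e-11), and only here among the 17 did a rise exceed 2-fold. F14F7.5 lay below the filter's 42.9 CPM in every wild-type library. It was thus tested through the null libraries alone, which in part fixed its direction. With library totals 14 of the 17 were higher. Against G to I the list had a median of 1.96, with 13 of 17 higher, and F14F7.5 was not called (log2 0.48). Nor was F14F7.5 called with wild type A to I as 1 group (log2 1.24).

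Small RNAs fell at most tested members of several large gene families. All 9 cuticle collagens that could be tested fell, with a median of -4.42, against 28.7% of all genes. The table has 156, however, and all 9 passed the filter through wild type alone. col-111 (IV, 4655791 to 4657974) had 1174 to 1326 CPM in wild type (median 1289) and 6.67, 16.9 and 16.0 CPM in the null, 96.3-fold lower (log2 -6.62, SE 0.20, edgeR adjusted p = 2.2e-46). col-71 fell from 1313 ± 155 to 25.8 ± 8.64 CPM (log2 -5.68) and col-157 from 692 ± 88.8 to 31.9 ± 9.05 CPM (log2 -4.42). The remaining collagens were too low to test, 43 of them with no count in any of the 9 libraries.

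F-box genes encode substrate adaptors of ubiquitin ligases and number 322 in the table. Of 53 tested 47 fell and 0 rose (median -2.19), against 28.7% and 34.4% of all genes. Among the 25 that passed the filter in both groups 24 fell, with a median of -1.25. fbxb-14 (II, 582111 to 582749) had 3052 to 3305 CPM in wild type and 370, 428 and 411 CPM in the null. It was lower in every null library than in every wild-type library, 7.91-fold (log2 -2.99, SE 0.09, edgeR adjusted p = 8.96e-46). fbxb-85 fell from 1283 ± 73.9 to 116.2 ± 16.1 CPM (log2 -3.48) and fbxa-218 from 1212 ± 74.8 to 106 ± 21.9 CPM (log2 -3.53). With library totals 32 F-box genes were lower and 8 higher, and against G to I 25 of 45 were lower and 12 higher.

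MATH and BTB genes, which also encode ubiquitin ligase adaptors, went both ways. Of 23 tested 15 fell and 4 rose, with a median of -1.13, against 28.7% and 34.4% of all genes. Through wild type alone 7 of the 23 passed the filter, and through the null alone 3. Of the 12 that passed in both groups 8 fell and 2 rose, with a median of -0.89. bath-20 fell from 6138 ± 572 to 1940 ± 161 CPM (log2 -1.65, SE 0.08), while bath-41 rose from 43 to 82.6 CPM (log2 0.93) and bath-42 from 41.5 to 74.3 CPM (log2 0.80). Of 15 tested nuclear hormone receptor genes 10 fell and 2 rose (median -0.93), against 28.7% and 34.4% of all genes. However, 8 of the 15 passed the filter through wild type alone. Of the 5 that passed in both groups 2 fell and 2 rose, with a median of 0.43. nhr-15 (V, 312721 to 323650) had 2583 to 3040 CPM in wild type (median 2868) and 46.7, 59.3 and 74.7 CPM in the null, 47.1-fold lower without overlap (log2 -5.59, SE 0.14, edgeR adjusted p = 1.49e-52). nhr-64 (log2 -3.48) and nhr-236 (-3.06) followed. nhr-229 and nhr-86 rose, by 0.76 and 0.56. With library totals the medians of MATH and BTB genes and of nuclear hormone receptors were -0.28 and -0.09, with 9 and 5 members higher.

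Linker histones, which bind DNA between nucleosomes, and core histones had members in both directions. The linker histone gene his-24 (X, 14490094 to 14491119) had 7000 to 9865 CPM in wild type (median 8194) and 848, 1000 and 982 CPM in the null. It fell 8.77-fold without overlap (log2 -3.14, SE 0.09, edgeR adjusted p = 2.91e-48). hil-3 fell from 1567 ± 96.0 to 296 ± 33.2 CPM (log2 -2.38) and hil-2 from 215 to 139 CPM (log2 -0.57), while hil-4 rose (log2 0.39) and hil-5 was not called. The groups overlapped for hil-4. It was not called with scaling from genes alone (log2 0.23), no low-count filter, wild type A to I as 1 group or without null B (0.28). With scaling from genes alone 4 linker histones were lower and 0 higher. Of 44 tested core histone genes 14 fell (31.8%), 5 rose (11.4%) and 25 were not called (median -0.03). Over all genes 28.7% fell and 34.4% rose, so the share that fell was near that of all genes. Other settings turned the balance, with 4 core histone genes lower and 29 higher with library totals (median 0.82), and 2 lower and 32 higher of 41 against G to I (median 1.25). Of the 5 linker histones 2 were lower and 3 higher against G to I. his-61 fell from 481 ± 83.0 to 29.8 ± 5.62 CPM (log2 -4.01), and his-16 from 163 ± 35.7 to 31.7 ± 15.6 CPM (log2 -2.39). Histone, F-box and other duplicated genes have near-identical copies, and how reads with several positions were counted is not given in the sources used here, so the level of one copy is uncertain.

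Of 41 tested pseudogenes, out of 198 in the table, 30 fell and 3 rose (median -1.47), against 28.7% and 34.4% of all genes. Of these 18 passed the filter through wild type alone, and of the 22 that passed in both groups 14 fell and 2 rose, with a median of -0.58. With library totals 22 were lower and 13 higher. F37H8.2 (II, 11171743 to 11175479) fell from 8863 ± 340 to 2322 ± 247 CPM (log2 -1.93, SE 0.07). Y52B11A.18 (I, 11059299 to 11061435) had 11900 to 16848 CPM in wild type and 7592, 8881 and 10716 CPM in the null. It fell 1.49-fold (log2 -0.58), was higher with library totals (log2 0.28) and higher against G to I (log2 0.24). Pseudogenes made up 3.78% ± 0.147 of feature counts in wild type and 3.43% ± 0.260 in the null, a difference that did not pass (2-sided exact permutation p = 0.0714).

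**Figure D3:**
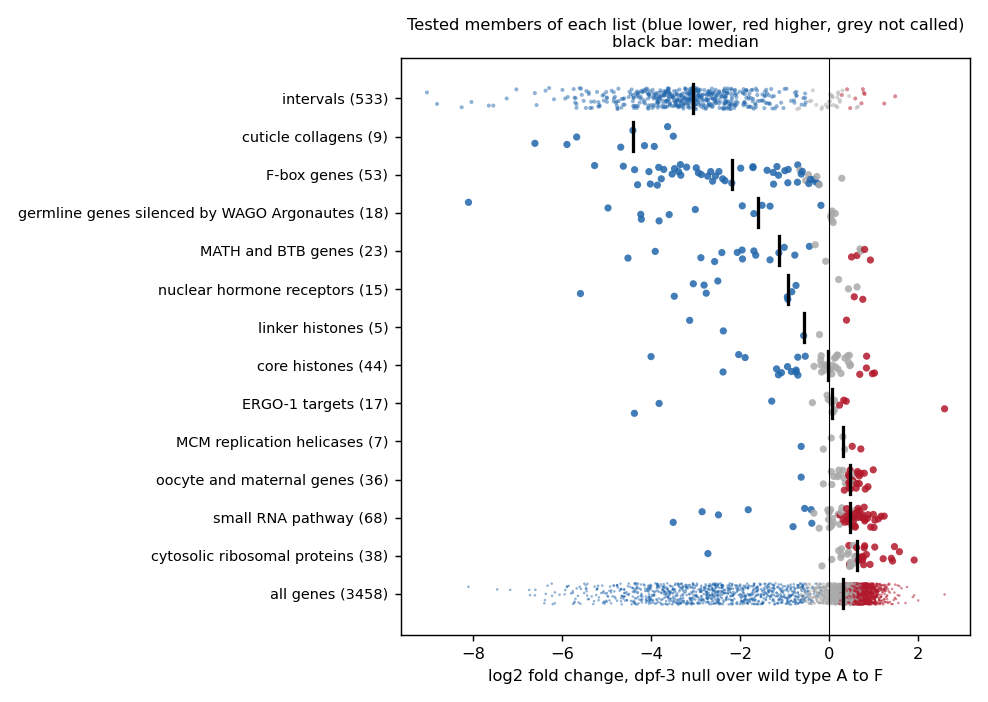
Log2 fold change (x axis, dpf-3 null over wild type A to F) of every tested member of each list, with the number tested in brackets, blue for lower, red for higher, grey for not called and a black bar at the median. The medians run from -4.42 for the cuticle collagens to 0.62 for the cytosolic ribosomal proteins, against 0.32 for all genes.

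A larger share of genes lost small RNAs on the X chromosome than on the autosomes. Only 176 of the 2748 X genes in the table (6.4%) were high enough to test, and of these 125 (71.0%) fell and 4 (2.27%) rose, with a median of -1.62. On the autosomes 868 of 3282 (26.4%) fell and 1185 (36.1%) rose, with a median of 0.35. Among the genes that passed the filter in both groups, 50 of 86 on X fell and 3 rose (median -0.70), against 342 and 741 of 1699 on the autosomes (median 0.36). With G to I as the control 86 of 158 X genes were lower and 33 higher (median -0.86). The share of gene counts on X, compared after the data were seen, was 6.6% ± 0.181 in wild type and 3.26% ± 0.0509 in the null. It lay between 6.39% and 6.83% in wild type and at 3.20%, 3.28% and 3.30% in the null, without overlap (2-sided exact permutation p = 0.0238, adjusted over 5 shares 0.0298). This p is the smallest that 84 splits of 9 libraries allow. G to I held 5.58%. Under each of the 5 scalings tried more X genes fell than rose, from 95 lower and 45 higher with library totals to 132 lower and 2 higher with scaling from genes alone. Besides his-24 and hil-3, X genes that fell included meg-4, which encodes a protein of the germ granules (194 ± 37.6 to 28 ± 18.1 CPM, log2 -2.86), and lin-15B, which encodes a nuclear repressor of germline genes in the soma (log2 -1.82). The 4 X genes that rose were F09B12.3 (log2 0.96), the neighbours ZK402.2 (0.36) and ZK402.3 (0.33), and ZK380.5 (0.33).

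Position on the autosomes went with the direction as well. With each autosome divided into 3 equal stretches, in the central stretch 198 of 1261 tested genes (15.7%) fell and 585 (46.4%) rose, and in the outer stretches 670 of 2021 (33.2%) fell and 600 (29.7%) rose. The medians were 0.47 and 0.22. This was read from the main fit only and was not tested under other settings. Of the tested autosomal genes 537 passed the filter through wild type alone and 954 through the null alone, and their split between the stretches was not examined.

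**Figure D4:**
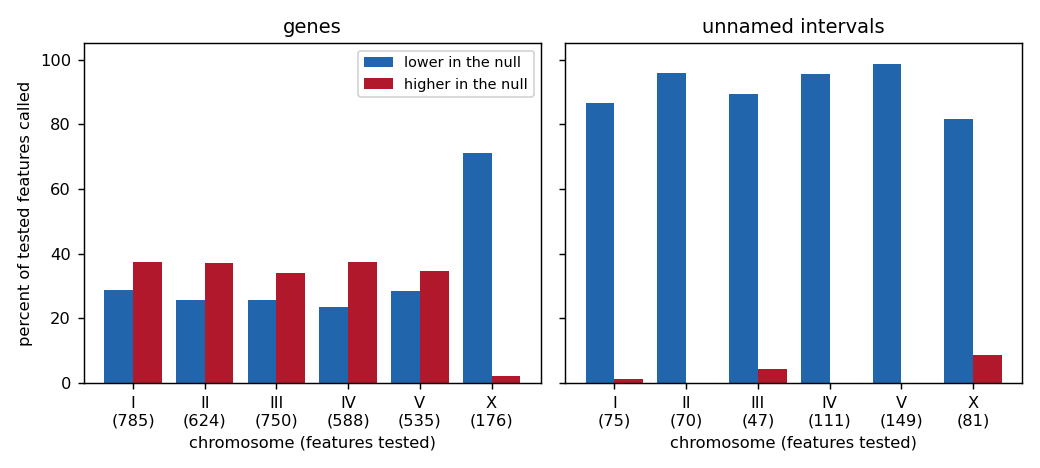
Percent of tested features (y axis) called lower (blue) or higher (red) in the dpf-3 null by chromosome, genes on the left and intervals on the right, with the number tested under each chromosome. Among genes, X has 71.0% lower and 2.27% higher, and among intervals most are lower on every chromosome.

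Most intervals high enough to test lost small RNAs. Of 533 tested, out of 55259 in the table, 493 (92.5%) fell and 10 (1.88%) rose, with a median log2 fold change of -3.05, and 280 of them fell at least 8-fold. With at least 2-fold required 479 (89.9%) fell and 2 (0.375%) rose. Of the 533, 346 passed the filter through wild type alone. Of the 172 intervals that passed the filter in both groups 149 fell and 7 rose, with a median of -2.30. With G to I as the control 374 of 452 were lower and 48 higher. Their share of feature counts was 21.6% ± 0.218 in wild type, between 21.4% and 21.9%, and 6.98%, 6.98% and 7.01% in the null. The groups did not overlap (2-sided exact permutation p = 0.0238, adjusted over 5 shares 0.0298), and G to I held 16.4%. Genes held 24.3% ± 1.31 of all reads counted in wild type and 19.5% ± 1.28 in the null, and reads in no feature rose from 69.0% ± 1.69 to 79.0% ± 1.37 (2-sided exact permutation p = 0.0238 for both, adjusted 0.0298).

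Most tested intervals fell wherever they lay. By the annotation used here, 234 of 252 tested intergenic intervals, 134 of 139 that lie in or across an intron and 125 of 142 that overlap an exon fell. Length went with the outcome: 290 of 295 intervals of 1000 bases or more fell and 1 rose, against 13 of 30 under 100 bases, of which 8 rose. Among 78 intervals on the strand opposite to their only host gene 73 fell, and on the same strand 155 of 167. In 59 pairs of a tested interval and its tested host gene, both fell in 34, and in 22 the interval fell and the host was not called. Both rose in 1 pair, at aakb-2, and neither was called in 1. In 1 pair the interval fell and the host was higher. That interval overlaps an exon of pig-1, a kinase gene, on the opposite strand (log2 -0.58 for the interval and 0.56 for pig-1). Some host genes occur in more than 1 pair.

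In 8 tested intervals no count was left in the null. These were thus tested through wild type alone, which in part fixed their direction. The highest bound was intergenic and lay on III (6630737 to 6631713, plus strand), with 210 to 303 CPM in wild type (median 280), which was at least 66.1-fold more than the null. An interval on V (17126624 to 17128176, minus strand) had 201 to 261 CPM and one on X (128210 to 128545, plus strand) 117 to 204 CPM, at least 56.1-fold and 38.2-fold more than the null. An interval on IV (1770553 to 1771803) was at least 32.9-fold lower, and one on I of 67 bases (85296 to 85362) at least 24.9-fold. Also at 0 in the null were an interval in an intron of irld-39 (IV, 16233858 to 16234883) and a pair of intergenic intervals of 600 bases each on the plus strand of IV (4125876 to 4126475 and 4170116 to 4170715).

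The interval on V that was lost belongs to the run with the highest summed level. Runs were built only from intervals called lower that lay on the same strand within 10000 bases of each other. That their members fell was therefore fixed by the definition. The run lay between 17126624 and 17157642 on the minus strand and held 5 intervals, the only tested ones on that strand there. Together they had 35194 to 38797 CPM in wild type and 2249, 2449 and 2541 CPM in the null, and they made up 13.8% of the wild-type CPM of tested intervals. The part from 17137383 to 17141676, which overlaps the exon of mir-257, a microRNA gene, fell from 13367 ± 594 to 762 ± 44.2 CPM (log2 -4.14, SE 0.08, edgeR adjusted p = 9.75e-58). The part from 17132108 to 17137381 fell from 12884 ± 531 to 676 ± 83.4 CPM (log2 -4.26, SE 0.09). In all, 68 runs held 2 or more intervals. A run on V from 5179696 to 5191238 (plus strand, 7 intervals) went from 13993 to 1399 CPM. A pair of runs on the plus strand of V, 8825452 to 8845311 with 9 intervals and 8867546 to 8887406 with 8, spanned 19860 and 19861 bases and went from 7406 to 1108 and from 7624 to 1149 CPM.

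Some intervals came as a body between 2 abutting flanks of equal length, within 5 bases, and of at least 100 bases each. The table has 16 such triplets, of which 10 had a body high enough to test, and in 9 of the 10 the body fell. Of all tested intervals 92.5% fell, and of those of 1000 bases or more 290 of 295. The count for the bodies is thus no higher than that for tested intervals in general. In 6 triplets the body and both flanks were tested and all 3 parts fell. On chromosome IV (body 913372 to 921243, flanks of 424 bases) the body had 7776 to 8357 CPM in wild type and 561, 665 and 662 CPM in the null, 12.7-fold lower (log2 -3.68, SE 0.09, edgeR adjusted p = 3.97e-54). Its flanks fell as well (log2 -3.35 and -3.76). In the triplet on V (body 791402 to 797900) the log2 fold change was -4.41 in the body and -5.68 and -4.33 in the flanks. In that on III (body 13230129 to 13242682) it was -3.79 in the body and -4.39 and -4.06 in the flanks.

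The exception was a body of 7881 bases on chromosome III (8853088 to 8860968, plus strand, flanks of 492 bases). It had 46.6 to 98.0 CPM in wild type (median 84.8) and 120, 148 and 171 CPM in the null, a rise of 1.81-fold without overlap (log2 0.78, SE 0.21, edgeR adjusted p = 0.000727). Its left flank was not called (log2 0.24), and the right flank was too low to test. The rise of the body was not called against G to I (log2 0.15).

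**Figure D5:**
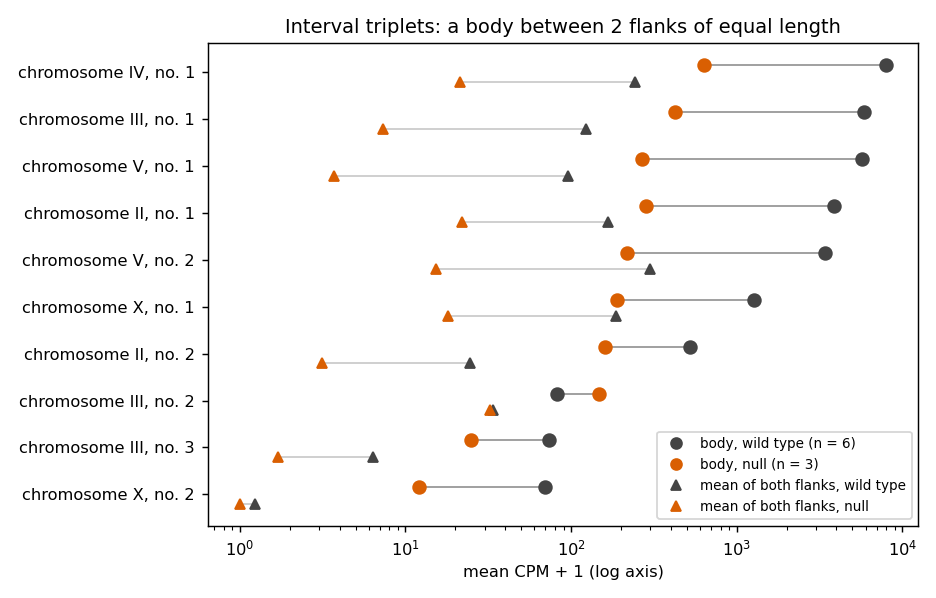
Mean small RNA level (x axis, CPM + 1, log axis) of the body (circles) and of both flanks (triangles, their mean) of the 10 interval triplets with a tested body, in wild type A to F (dark) and the dpf-3 null (orange). In 9 triplets the null lies to the left of wild type for the body, and on chromosome III, no. 2, it lies to the right.

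Of the 10 intervals that rose, 7 were on X and of 93 or 96 bases. An intergenic one (X, 17400536 to 17400628, minus strand) had 5.82 to 25.9 CPM in wild type (median 20.6) and 46.7, 76.3 and 48.1 CPM in the null, a 3.06-fold rise without overlap (log2 1.48, SE 0.34, edgeR adjusted p = 0.000104). Others lay on X at 17075554 to 17075646 (log2 1.24), in an exon of F23A7.8 (16213384 to 16213476, 0.80), in an exon of F23A7.4 (16212617 to 16212709, 0.72) and at 17075115 to 17075207 (0.59). In all 5 the null libraries lay above every wild-type library. The one at 17075115 was not called with scaling from genes alone (log2 0.43), no low-count filter, DESeq2 or without null C (0.42), and the one in F23A7.4 was not called with the replicate block (0.36) or against wild type A to C without it. The other 3 rises were an interval of 91 bases in an exon of aakb-2, a gene for a subunit of AMP-activated kinase (log2 0.76), one of 168 bases on I (log2 0.28), and the body on III. Short intervals on X did not all rise, since of 14 tested ones under 100 bases 7 rose, 2 fell and 5 were not called, whereas of 16 on the autosomes 1 rose and 11 fell.

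Genes with higher small RNA levels in the null than in wild type A to F rose little. Besides F14F7.5, only madf-3, which encodes a MADF-domain protein, reached 4-fold, from 10.7 ± 6.81 to 46.7 ± 10.7 CPM (log2 2.00, SE 0.40). lsl-1 (I, 9901076 to 9902950), which encodes a zinc finger transcription factor of the germline, had 39.2 to 88.0 CPM in wild type (median 46.6) and 194, 165 and 219 CPM in the null. The rise was 3.34-fold without overlap (log2 1.71, SE 0.21, edgeR adjusted p = 2.01e-11), and the log2 fold change against G to I was 3.14. zipt-11 (a zinc transporter gene, log2 1.75), misc-1 (a mitochondrial carrier gene, 1.58), mai-2 (an ATP synthase inhibitor gene, 1.55), dut-1 (a dUTPase gene, 1.54), mrpl-1 (a mitochondrial ribosomal protein gene, 1.54), F27C1.2 (1.88) and C50C3.1 (1.5) were among the 12 largest rises. F14F7.5, madf-3, zipt-11, misc-1, mai-2, dut-1, mrpl-1 and F27C1.2 lay below the filter's 42.9 CPM in every wild-type library. They were thus tested through the null libraries alone, which in part fixed their direction. F27C1.2, misc-1 and C50C3.1 were not called against G to I (log2 0.61, 0.61 and -0.21). The same genes, F14F7.5 and madf-3 were not called with wild type A to I as 1 group. zipt-11, mai-2, dut-1 and mrpl-1 kept the call under these settings. The called genes with the most counts among those higher had small changes against A to F and, for 3 of 4, large ones against G to I. pals-26 (III, 4375154 to 4378907) had 12282 to 16991 CPM in wild type and 17947, 15626 and 13647 CPM in the null, and the groups overlapped (log2 0.17, SE 0.07, edgeR adjusted p = 0.0246). It was not called with size factors, scaling from genes alone, no low-count filter, DESeq2, all 21 libraries, wild type A to I as 1 group or the replicate block, nor without null A, null B, wild type B or wild type F. Y47H10A.5 rose by 0.32, set-9, a SET-domain gene, by 0.26 and K02E2.11 by 0.23 on the log2 scale. K02E2.11 was not called with scaling from genes alone (log2 0.07), no low-count filter, wild type A to I as 1 group, or without null A (0.14) or null B (0.18). set-9 was not called with scaling from genes alone (log2 0.11), no low-count filter, wild type A to I as 1 group, the replicate block or G to I as control (0.15), and Y47H10A.5 was not called with A to I as 1 group. Against G to I the log2 fold changes of pals-26, Y47H10A.5 and K02E2.11 were 2.16, 1.8 and 2.08, and all 3 were called higher. Among genes with many counts that fell, W09C5.12 went from 12272 ± 484 to 5954 ± 711 CPM (log2 -1.04). The genes dut-1 and K07A1.3 overlap at their ends on opposite strands, and K07A1.3 is among the 12 largest falls. Whether counting used the strand is not given, so reads of the shared stretch cannot be assigned to one of them.

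Cytosolic ribosomal protein genes had 20 higher and 1 lower of 38 tested, with a median of 0.62, against 0.32 over all genes. Of the 38, 28 passed the filter through the null libraries alone and 5 in both groups, of which 3 rose, so the count does not stand for the class of 81. Over all 81 the summed level was 2229 to 2667 CPM in wild type and 3364 to 3686 CPM in the null. rps-17 rose from 10.9 ± 8.22 to 42.2 ± 8.09 CPM (log2 1.91), rpl-25.2 from 15.1 ± 4.25 to 44.6 ± 3.03 CPM (log2 1.58) and rpl-16 from 48.5 ± 14.6 to 140 ± 18.4 CPM (log2 1.47, edgeR adjusted p = 3.73e-08). rpl-11.2, on X, fell from 91.4 ± 26.3 to 12 ± 1.39 CPM (log2 -2.73). With scaling from genes alone 10 rose. Against G to I 13 of 53 were higher and 5 lower, and with wild type A to I as 1 group 3 of 58 were higher and 1 lower. rpl-25.2 was not called against G to I (log2 0.34), and rps-17, rpl-25.2 and rpl-16 were not called with A to I as 1 group.

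Oocyte and maternal genes, which are expressed in the germline, had 23 higher and 1 lower of 36 tested, with a median of 0.47, against 34.4% higher and a median of 0.32 over all genes. Of these, 30 passed the filter in both groups, and 21 of the 30 rose, as did 744 of all 1785 genes that passed in both. gld-3, which encodes a translational regulator of germ cells, had 114 to 140 CPM in wild type (median 130) and 310, 220 and 230 CPM in the null (log2 0.99, SE 0.16, edgeR adjusted p = 8.35e-08). rec-8, which encodes a meiotic cohesin subunit, rose from 188 ± 36.8 to 339 ± 10.2 CPM (log2 0.87) and mcm-7, a replication helicase gene, from 300 ± 31.6 to 490 ± 66.3 CPM (log2 0.71). gld-1 (log2 0.68), cgh-1 (0.79) and klp-18 (0.53) rose, and glp-1 (0.06) and him-3 (0.22) were not called. mcm-2 fell from 248 ± 34.7 to 164 ± 6.46 CPM (log2 -0.63), the only member that did. With scaling from genes alone 15 rose and 1 fell, and against G to I 21 of 50 were higher and 15 lower.

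The genes of the small RNA pathway themselves are targets of small RNAs, and 38 of 68 tested rose and 8 fell, dpf-3 itself included, with a median of 0.48, against 34.4% higher, 28.7% lower and a median of 0.32 over all genes. Of the rises 5 were of 2-fold or more. With scaling from genes alone 28 rose and 9 fell. Of the 68, 11 passed the filter through the null alone and 3 through wild type alone, which in part fixed their direction. Among the 53 that passed in both groups 34 rose and 5 fell, as did 744 and 392 of all 1785 genes that passed in both.

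Of the 8 tested Argonautes that bind 22G RNAs, 5 rose and 0 fell, against 34.4% and 28.7% of all genes. ppw-2, which encodes WAGO-3, had 713 to 867 CPM in wild type (median 801) and 1205, 1466 and 1196 CPM in the null, 1.61-fold higher without overlap (log2 0.68, SE 0.08, edgeR adjusted p = 3.63e-11). wago-1 rose from 149 ± 29.5 to 252 ± 22.6 CPM (log2 0.79), hrde-1, for the Argonaute of nuclear inheritance, from 837 ± 67.9 to 1054 ± 55.7 CPM (log2 0.35), wago-4 by 0.24 and sago-2 by 0.54. csr-1, at 689 ± 24.2 and 740 ± 43.3 CPM (log2 0.10, adjusted p = 0.344), ppw-1 (log2 0.26, adjusted p = 0.137) and sago-1 (log2 0.05) were not called. With scaling from genes alone 3 rose, which were ppw-2, hrde-1 and wago-1. Among Argonautes of primary small RNAs, rde-1, for double-stranded RNA, rose from 34.4 ± 7.04 to 75.2 ± 11 CPM (log2 1.11), but it did not against G to I (log2 -0.26). Before TMM scaling rde-1 lay below the filter's 42.9 CPM in every wild-type library, so it was tested through the null libraries alone. prg-1, for piRNAs (log2 0.07), and ergo-1 (log2 -0.35) were not called. Against G to I prg-1 (log2 0.89), sago-1 (1.17) and ppw-1 (0.50) were called higher, and csr-1 (0.20) and ergo-1 (0.12) were not called.

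Of 9 tested Mutator and secondary small RNA factors 5 rose and 0 fell, against 34.4% and 28.7% of all genes, and with scaling from genes alone 3 rose and 1 fell. Those that rose included mut-15 (log2 0.74), rde-2 (0.65), mut-7 (0.58) and mut-14 (0.39). mut-16, the scaffold of the foci, was not called (log2 0.23). Of the 4 RNA-dependent RNA polymerases ego-1 (log2 0.48), rrf-1 (0.39) and rrf-3 (0.59) rose and rrf-2 fell (-0.55).

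Among 8 tested genes of the Dicer and ERI complexes and of their partners 5 rose and 1 fell, against 34.4% and 28.7% of all genes. With scaling from genes alone 4 rose and 1 fell. Those that rose included eri-3 (log2 1.24), eri-1 (1.01), drh-1 (0.93), rde-4 (0.54) and dcr-1 (0.42). The helicase gene eri-6 (I, 4457375 to 4469460) had 8214 to 9006 CPM in wild type and 1568, 1436 and 1580 CPM in the null. It fell 5.62-fold without overlap (log2 -2.49, SE 0.07, edgeR adjusted p = 1.98e-46). In the piRNA pathway pid-1 (log2 1.17), tofu-5 (0.99), tofu-4 (0.80) and snpc-4 (0.59) rose, and parn-1, for the exonuclease that trims piRNAs, fell from 1565 ± 168 to 1190 CPM (log2 -0.41).

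Among 15 tested factors of germ granules and inheritance 7 rose (46.7%) and 3 fell (20%), against 34.4% and 28.7% of all genes. With scaling from genes alone 5 rose and 3 fell, against 21.2% and 29.9% of all genes. Those that fell were meg-4, glh-2 (log2 -0.81) and glh-1 (-0.39), the last 2 of which encode helicases of the Vasa family, while glh-3 rose (0.63) and glh-4 was not called (0.00). sid-1, which encodes a channel for double-stranded RNA, rose from 303 ± 24.9 to 624 ± 28.4 CPM (log2 1.03, SE 0.11, edgeR adjusted p = 6.96e-14), but it was not called against G to I (log2 0.03). Of 11 nuclear silencing and chromatin factors 8 rose (72.7%) and 1, lin-15B, fell, and with scaling from genes alone 7 rose and 1 fell. Those that rose included hpl-2 (log2 0.87), mes-2 (0.86), nrde-4 (0.81), met-2 (0.64), set-25 (0.52) and nrde-2 (0.32).

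Markers of other tissues were mostly too low to test. Major sperm protein, sperm-specific and nspd genes, 53 in all, summed to between 12 and 39.2 CPM in wild type and between 30.0 and 46.6 CPM in the null, with 19 at 0 in all 9 libraries. Of 43 spermatogenesis genes 3 were tested, of which spe-41, a sperm calcium channel gene, fell from 181 ± 21.1 to 30.6 CPM (log2 -2.52) and spe-12 rose (log2 0.75). Of 24 muscle genes the 2 tested both fell, cpn-4, a calponin gene, from 1239 ± 101 to 20.0 CPM (log2 -5.86) and unc-54, the gene of the main body wall myosin, from 195 ± 36.2 to 102 CPM (log2 -0.96). Of 29 neuron genes the 2 tested both fell, egl-21 (log2 -3.17) and ida-1 (log2 -1.14), which serve neuropeptide processing and dense core vesicles. Summed over all listed genes, muscle markers went from between 1432 and 1749 CPM to between 216 and 227 CPM, and neuron markers from between 378 and 506 CPM to between 171 and 263 CPM. Intestine markers lay at 135 to 227 CPM in wild type and 171 to 197 CPM in the null, and hypodermis markers other than collagens at 140 to 227 and 153 to 204 CPM. Against G to I the tissue markers did not keep these directions throughout: of 3 tested neuron genes 0 were lower and 1 higher, and of 2 muscle genes 1 was lower and 1 higher. Of 6 intestine genes 3 were lower and 0 higher, of 8 spermatogenesis genes 6 were lower and 1 higher (median -3.25), and the 3 tested major sperm protein, sperm-specific and nspd genes were all lower (median -4.94). These are levels of small RNAs against the genes, and their part in the other results was not tested. Of other families with few tested members, 4 of 4 chemoreceptor genes (1309 in the table) and 3 of 4 C-type lectins (240) fell, against 28.7% of all genes. These counts depended on the filter. With at least 10 CPM in 3 libraries, 9 of 16 chemoreceptor genes and 5 of 29 C-type lectins were lower, against 21.2% of all genes.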

How the data were processed

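The authors deposited 1 table of whole-number read counts per feature and library, and no step was applied to those counts before the fit. The submitters' processing notes name the ce11 assembly and, among tools, HTSeq 0.11.2, SAMtools 1.9, Bowtie 1.2.3 and cutadapt 2.3. The role of each tool, the strand setting, the handling of reads with several positions, duplicate removal and where the intervals come from are each not given in the sources used here. Names and positions came from the Ensembl WBcel235 annotation, the same assembly as ce11, which holds 20055 of the 20134 gene identifiers. Genome sequence was not used here, so no sequence is printed.

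Reads in no feature and ambiguous reads were left out of library sizes and tests. They made up 69.0% of all reads counted in wild type and 79.0% in the null for no feature, and under 0.1% for ambiguous reads. The 9 libraries were fitted with edgeR 4.0.16 in R 4.3.3 (TMM scaling, quasi-likelihood test, Benjamini-Hochberg adjustment over all 3991 features). The filterByExpr filter asked for about 42.9 CPM, which is 10 counts at the median library size, in 3 libraries. Calls were made where the adjusted p was under 0.05. In simulated counts with the spread of this fit over 3991 features, 100% of 4-fold and 82.1% of 2-fold changes were called, and 4.00% of calls were false. Only a small part of the simulated features was changed, as many up as down. In the data far more features were called, and falls of at least 2-fold outnumbered such rises. The false share of the calls reported here can therefore differ from the simulated one. A level of 3 counts equalled 6.35 to 12.9 CPM in wild type and 13.4 to 21.9 CPM in the null before TMM scaling. Folds against no count use a floor of 3 counts over the group, and folds against 1 to 3 counts are ratios with exact 95% intervals, both covering counting error only.

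Shares were compared by 2-sided exact permutation tests over libraries. Libraries of a group differed from each other by slightly more than sampling noise, with 1.07 to 1.55 chi-square per feature against 15.2 to 21.2 between the groups, and each was counted as 1 replicate. The letters A to C are shared by both groups, but same-lettered libraries did not deviate together (correlations of 0.047, 0.015 and 0.009), so they were not treated as pairs. Features were named by a rule: among called features whose higher group averaged at least 10 CPM and whose groups do not overlap, the 12 largest falls and rises of genes and the 8 and 6 of intervals, the called features with the most counts, the 3 members of each list with the smallest p, all tested Argonautes and dpf-3. Other list members are named as examples chosen after their values were seen. The lists, the rule and the comparison were chosen with earlier results of these data known. Alternatives were other scalings, filters and tools (DESeq2 1.42.0, limma 3.58.1), other wild-type sets, each library left out and a replicate block. Python 3.11.15 with matplotlib 3.10.9, scipy 1.17.1 and pandas 2.3.3 made the tables and figures.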

Additional observations from a re-analysis of the deposited data

Results flagged for a closer look

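In 98 groups of 6 wild-type libraries, 2 had a library far from the others by Dixon's test at its 95% critical value, where chance gives about 1 in 20 groups. For the interval on chromosome IV at 4170116 to 4170715, wild type D had 83.9 CPM and the next highest library 67.3 CPM. For K02E2.11, wild type E had 4524 CPM and the next highest library 3975 CPM. The groups of 3 null libraries were not tested in this way.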

How the results depend on the processing

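The count of falls moved less across settings than the count of rises. Features called lower numbered 1486, between 1252 and 1555 under all settings but those of the filter, which tested more features: 2246 without a low-count filter (728 higher) and 2290 with at least 10 CPM in 3 libraries. Features called higher numbered 1199, against 2452 with library totals, 1893 with all reads counted, 739 with scaling from genes alone, 689 with DESeq2 and 387 with wild type A to I as 1 group, and the cause was not tested. Leaving out 1 library gave 1411 to 1555 lower and 864 to 1295 higher. With the replicate block on the letters A to C, which do not pair the libraries, 1264 were lower and 725 higher, against 1260 and 710 for the same 6 libraries without the block, a setting chosen after seeing the data.

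Differences in shares (null minus wild type, percentage points) against G to I were -9.45 for intervals, 0.42 for pseudogenes, which turned the direction, -19.2 for genes, 25.4 for reads in no feature and -2.32 for X, where no exact p can go below 0.1. With 1 library left out they were -14.7 to -14.6, -0.473 to -0.212, -5.11 to -3.99, 9.2 to 10.5 and -3.38 to -3.29 in that order, and with 1 null library left out no 2-sided exact permutation p can go below 0.0714. Of all reads counted, the pseudogene difference was -0.45 (exact permutation p = 0.0238).

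Of 93 named features 88 were called, and 24 of them lost the call under 1 setting or more. Against G to I the signs of C50C3.1 (-0.21), Y52B11A.18 (0.24) and rde-1 (-0.26) turned, and with library totals those of Y52B11A.18 (0.28) and mcm-2 (0.22). Of those not called, csr-1 (-0.057), sago-1 (-0.10) and prg-1 (-0.081) turned with scaling from genes alone, prg-1 also with the replicate block (-0.00103) and without it on the same libraries (-0.00142), and ergo-1 with library totals (0.50) and against G to I (0.12). With 1 library left out sago-1 ranged from -0.34 to 0.18 and prg-1 from -0.0013 to 0.14. Depth limits low features, since 1 count in the null was worth several CPM.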
